A study of Rattus norvegicus with 4 samples.

Results

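The D-type cyclins, the kinases CDK4 and CDK6 that they activate, and inhibitors of cyclin-dependent kinases were followed in ribosome footprints of rat cells described as myocardial. The set held 10 genes, taken by symbol from the 31038 rows of the count tables: Ccnd1, Ccnd2, Ccnd3, Cdk4, Cdk6, Cdkn1a, Cdkn1b, Cdkn2a, Cdkn2b and Cdkn2c. All 10 had a row, and all 10 had enough counts to be tested. The siNT cells received a control siRNA and the si3m cells one directed at eIF3m, a subunit of the complex eIF3 that helps bring ribosomes to messenger RNA, with 2 libraries per group. The labels call the cells NRVM, an abbreviation that usually stands for neonatal rat ventricular myocytes, while the growth protocol speaks of embryonic rat heart muscle. All cultures grew in serum-containing medium, and all lysates were prepared with cycloheximide, which holds ribosomes on the messenger RNA. No genotype, strain or animal age is given in the sources used here. Nor do the labels tie the 2 libraries of a group to different cultures, and the spread that the p-values measure may therefore be technical.

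A cell in G1, the phase before DNA replication, assembles cyclin D with CDK4 or CDK6, and these kinases phosphorylate the retinoblastoma protein so that E2F factors are released. INK4 proteins bind CDK4 and CDK6 and keep cyclin D away, whereas Cip/Kip proteins bind whole cyclin and kinase complexes and mainly block cyclin E with CDK2. Heart muscle cells leave the cell cycle soon after birth, and D-type cyclins and CDK inhibitors are among the genes studied for that exit.

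The siNT libraries held 3924434 (replicate 1) and 3835750 (replicate 2) counts, and the deeper si3m libraries held 8687598 and 6726969. Eif3m itself, the siRNA target, fell from 530 and 449 CPM, which here means counts scaled between libraries by TMM, a method that centres most genes on no change, to 137 and 190 CPM (log2 fold change -1.59, SE 0.11, edgeR adjusted p = 3.41e-08). Of 16 cardiomyocyte markers 8 had at most 6 counts in every library, Tnni3, Myl7 and Nppa were at 0 throughout, and the list summed to between 122 and 138 CPM. Fibroblast markers, 11 genes with Tcf21 at 0 throughout, summed to 7844 and 7741 CPM in siNT and 13077 and 12968 CPM in si3m. Most of the cardiomyocyte sum lay on Tnnc1 (55.6 to 77.1 CPM) and Ttn (26.2 to 43.6 CPM), and 12 of the 16 markers had too few counts to be tested. The cardiomyocyte list thus gives little backing to the NRVM label. In such bulk libraries fewer cells of a type and less RNA per cell cannot be told apart, and a footprint count joins messenger RNA level and translation.

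Cyclin D1 and the kinase CDK4 had more footprints in si3m, and p27 had fewer. Ccnd1 rose 1.46-fold and Cdk4 1.36-fold, while Cdkn1b fell 1.43-fold. Cdkn2a was past the threshold too, higher in si3m, but with so few siNT counts that it entered the test through si3m and is given as a description only. The other 6 genes did not pass edgeR's quasi-likelihood test at an adjusted p of 0.05. Among all 12672 tested genes 27.8% passed, 14.0% higher and 13.9% lower, so that 4 of 10, or 3 of 9 (33.3%) without Cdkn2a, stand beside a high background. The median log2 fold change was 0.21 over the 10 genes, 0.13 over the 9 without Cdkn2a, and 0.016 over all tested genes. For 8 of the 10 genes both libraries of one group lay beyond both of the other, as they did for 63.9% of all tested genes. With total count scaling in place of TMM, calls over all genes were 1428 higher and 2214 lower, against 1771 and 1757.

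**Figure D1:**
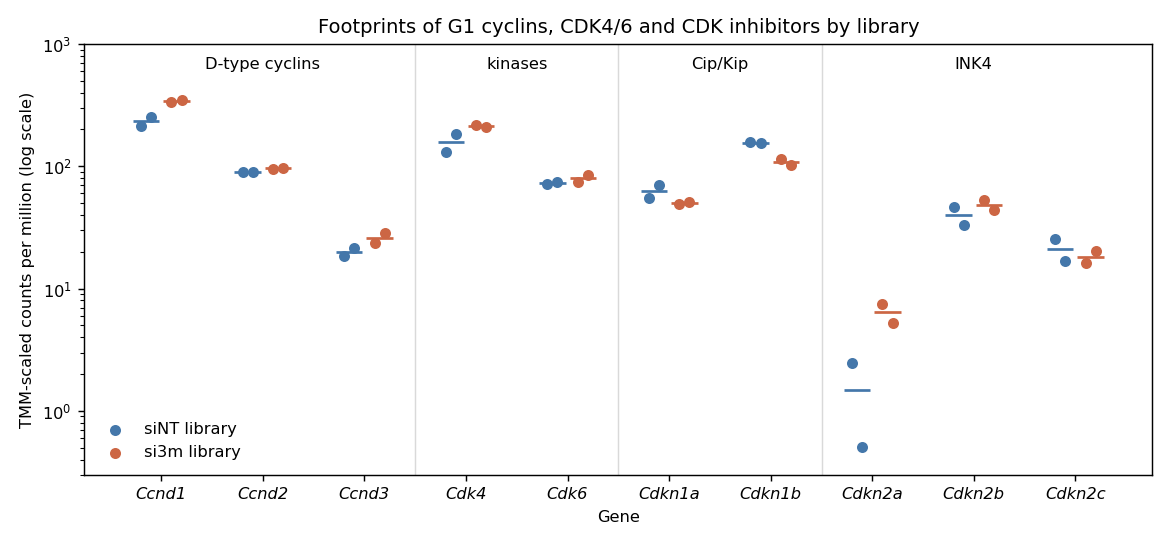
TMM-scaled CPM (log axis) of each of the 10 genes in the 2 siNT (blue) and 2 si3m (orange) libraries, with a line at each group's mean. Ccnd1 and Cdk4 lie higher and Cdkn1b lower in both si3m libraries, Cdkn2a has the fewest counts, and Cdkn2b and Cdkn2c overlap between groups; heights of different genes are not corrected for length.

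Ccnd1 encodes cyclin D1, the D-type cyclin best known as a sensor of growth factors. Its level was 212 and 255 CPM in siNT replicates 1 and 2, against 334 and 346 CPM in the si3m replicates in the same order (deposited counts 854, 1006, 2849 and 2244). Both si3m libraries lay above both siNT libraries, and the siNT pair was the more spread. The mean rose from 233 ± 30.3 to 340 ± 8.19 CPM (SD, n = 2 each), a log2 fold change of 0.54 (SE 0.074, 95% interval 0.39 to 0.70, edgeR adjusted p = 4.51e-05). The call held in all 13 alternative settings, over which the log2 value ran from 0.42 to 0.69.

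Ccnd2 encodes cyclin D2, and its footprints were almost level. The values were 90.3 and 89.1 CPM in siNT against 95.5 and 97.4 CPM in si3m, which do not overlap but differ by little. The fold change was 1.08 with a 95% interval of 0.930 to 1.24 (log2 0.10, SE 0.098, edgeR adjusted p = 0.470), so a rise as large as the 1.46-fold of Ccnd1 lies outside its interval. Ccnd3, the cyclin D3 gene, had 18.4 and 21.3 CPM in siNT and 23.7 and 28.4 CPM in si3m. Its lower depth of 74 to 202 deposited counts per library left a wide interval, from 0.954-fold to 1.80-fold (log2 0.39, SE 0.21, edgeR adjusted p = 0.200). That interval takes in both no change and the size seen for Ccnd1.

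Shares within a library need no scaling between libraries. Ccnd1 took 66.1% (95% Clopper-Pearson interval 62.3 to 69.7) and 69.8% (66.3 to 73.1) of all D-type cyclin counts in siNT replicates 1 and 2. In si3m its share was 73.7% (71.7 to 75.7) and 73.3% (71.0 to 75.5). The Ccnd2 share went from 28.2% and 24.4% to 21.1% and 20.7%, and that of Ccnd3 stayed between 5.23% and 6.01%. Shares of a library are tied, so a larger Ccnd1 share leaves less for the others. The Ccnd2 level itself did not fall (log2 0.10). The groups did not overlap for the Ccnd1 and Ccnd2 shares, although the intervals of siNT replicate 2 and both si3m libraries did. Single-gene levels did not overlap for 63.9% of all tested genes. Intervals were computed on fragments (deposited counts divided by 2, since nearly all counts were even), cover counting error only, and rest on reads without molecular identifiers. An exact permutation test of 2 libraries against 2 cannot reach 0.05, and no test of the shares was run.

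**Figure D2:**
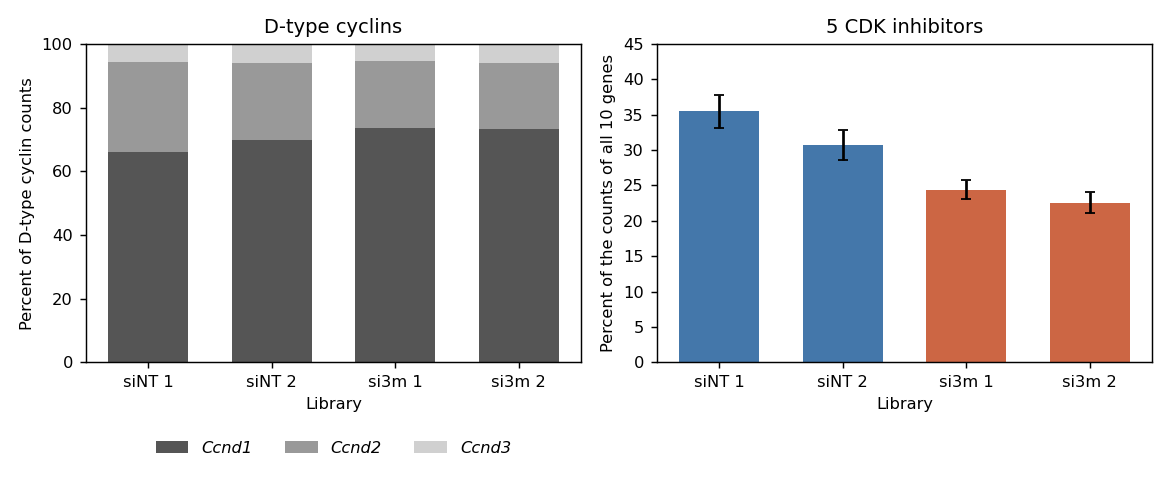
Left, the percent of D-type cyclin counts from Ccnd1, Ccnd2 and Ccnd3 in each library; right, the percent of the counts of all 10 genes that fell on the 5 CDK inhibitors, with 95% Clopper-Pearson intervals on fragments. The Ccnd1 share was 66.1% and 69.8% in siNT and 73.7% and 73.3% in si3m, and the inhibitor share was 35.5% and 30.7% in siNT against 24.4% and 22.6% in si3m.

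Cdk4 and Cdk6 encode the catalytic partners of the D-type cyclins. Cdk4 had 130 and 185 CPM in siNT replicates 1 and 2, against 217 and 210 CPM in si3m. The si3m libraries were close together and above both siNT libraries, which were themselves far apart. The rise was 1.36-fold, from 158 ± 38.3 to 214 ± 4.59 CPM (SD, n = 2 each; log2 0.44, SE 0.11, 95% interval 0.21 to 0.67, edgeR adjusted p = 0.00665). The call rested on siNT replicate 1, without which the log2 value was 0.22 (adjusted p = 0.0509), while without siNT replicate 2 it was 0.72. It was also lost in DESeq2 (adjusted p = 0.233) and with robust quasi-likelihood (0.0757).

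Cdk6 was at 71.4 and 73.9 CPM in siNT and 74.9 and 84.9 CPM in si3m. It did not pass (log2 0.13, SE 0.12, edgeR adjusted p = 0.430), and its interval ran from 0.925-fold to 1.30-fold. The Cdk4 share of the counts of both kinases was 64.6% and 71.4% in siNT and 74.3% and 71.2% in si3m, so the groups overlapped. In GRCr8, as RefSeq annotates it, the end of Cdk4 overlaps that of its neighbour Tspan31, a tetraspanin gene with its own row, by 11 bases. The Tspan31 row rose 1.46-fold by edgeR (adjusted p = 2.57e-05, log2 0.55, SE 0.070), and its part in the Cdk4 counts was not tested. Ccnd3 and Cdk6 each overlap only long non-coding RNA genes that have no row of their own, and the other 7 genes overlap none.

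The stretch before the start of Cdk4 is shown because Cdk4 rose and is a textbook target of MYC, a factor that binds the E-box. It covers the 250 bases before the start site, at chr7:64771203-64771452 on the plus strand of GRCr8 (RefSeq). Capitals mark the E-box CACGTG and the GC box GGGCGG, searched on both strands, and no E2F match TTTNNCGC was found in these letters.
Cdk4: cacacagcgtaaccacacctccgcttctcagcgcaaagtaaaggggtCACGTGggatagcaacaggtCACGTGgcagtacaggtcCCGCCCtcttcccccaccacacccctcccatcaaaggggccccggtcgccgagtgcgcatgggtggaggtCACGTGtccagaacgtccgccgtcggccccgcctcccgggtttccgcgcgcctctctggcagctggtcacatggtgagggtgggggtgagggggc
The E-box CACGTG occurs 3 times, from bases 203, 183 and 95 before the start, and the GC box once, 165 bases before it. At least 1 E-box was held by 5.59% of the 33469 windows of this length in the table, and at least 3 by 17 windows. A GC box was in 30.5% of all windows and in 6 of the 7 windows found for the set, an E-box in 1 of 7 and the E2F letters in 0 of 7, against 4.11% of all. These are letter matches, and footprints do not measure binding.

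Cdkn1b, which encodes p27, the Cip/Kip inhibitor of resting cells, was the only one of the 10 genes to pass in the lower direction. Its level was 158 and 155 CPM in the siNT libraries, against 115 and 103 CPM in si3m (deposited counts 636, 612, 976 and 670). The siNT libraries almost coincided and both si3m libraries were well below them. The mean fell from 156 ± 1.99 to 109 ± 7.96 CPM (SD, n = 2 each; log2 -0.52, SE 0.084, 95% interval -0.70 to -0.34, edgeR adjusted p = 2.41e-04). The call held in all 13 alternative settings, with log2 values from -0.60 to -0.44.

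Cdkn1a encodes p21, the Cip/Kip inhibitor induced by p53. It was at 55.1 and 70.9 CPM in siNT and 48.8 and 50.9 CPM in si3m, a difference that did not pass (log2 -0.34, SE 0.15, edgeR adjusted p = 0.0985). Its interval, from 0.639-fold to 0.981-fold, takes in the size of the fall in Cdkn1b. It passed without siNT replicate 1 (log2 -0.50, adjusted p = 0.00947) and with total count scaling (adjusted p = 0.0437). The Cdkn1b share of the counts of both genes overlapped between groups, at 74.1% and 68.6% in siNT against 70.1% and 67.0% in si3m.

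The INK4 genes differed in counts and so in how well they could be measured. Cdkn2a encodes p16INK4a and, from another first exon and reading frame, the p53 regulator ARF. A count per gene cannot separate these products. Only 10 and 2 counts fell on it in siNT replicates 1 and 2, against 64 and 34 in si3m, equal to 2.48, 0.506, 7.51 and 5.24 CPM. Both si3m libraries were higher. In fragments, 6 in siNT against 49 in si3m, the ratio was 4.34-fold with a 95% interval of 1.86 to 12.4 from counting error only. Cdkn2a met the minimum count in 1 siNT and both si3m libraries, so it entered the test through the group in which it was high, and its fitted log2 value of 2.08 (edgeR adjusted p = 0.0173, SE 0.60) is a description and no support. The call was lost without siNT replicate 2 (log2 1.37, adjusted p = 0.0591) and without si3m replicate 1 (log2 1.80, adjusted p = 0.185), and the log2 value was 3.62 without siNT replicate 1.

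The window before the annotated start of Cdkn2a is shown because Cdkn2a is known for separate first exons for its products, p16INK4a and ARF. It overlaps the annotated span of its own gene, as do 6 of the 7 windows found. It runs over chr5:109107957-109108206 on the minus strand of GRCr8 (RefSeq), with the GC box GGGCGG in capitals.
Cdkn2a: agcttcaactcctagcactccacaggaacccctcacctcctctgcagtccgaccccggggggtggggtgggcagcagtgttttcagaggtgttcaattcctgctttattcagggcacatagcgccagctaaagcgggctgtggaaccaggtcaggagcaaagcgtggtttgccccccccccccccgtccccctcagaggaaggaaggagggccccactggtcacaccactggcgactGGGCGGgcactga
The GC box is 13 bases before the start, and neither the E-box nor the E2F letters occur.

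Cdkn2b, the p15 gene beside Cdkn2a, is known as a target of TGF-beta. The siNT libraries gave 46.6 and 32.9 CPM and the si3m libraries 53.3 and 43.8 CPM, so that the groups overlapped (log2 0.29, SE 0.18, edgeR adjusted p = 0.254). It passed without siNT replicate 1 (log2 0.57, adjusted p = 0.0164). Cdkn2c, which encodes p18, had 25.3 and 16.7 CPM in siNT and 16.2 and 20.4 CPM in si3m. These too overlapped (log2 -0.21, SE 0.25, edgeR adjusted p = 0.584), and without siNT replicate 1 the direction turned (log2 0.13). The Cdkn2a share of INK4 counts was 3.33% and 1.01% in siNT against 9.76% and 7.56% in si3m, Cdkn2b keeping 62.7% to 69.2% in every library.

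The balance of cyclins and kinases to inhibitors also differed between the groups. D-type cyclins summed to 321 and 365 CPM in siNT against 454 and 472 CPM in si3m. Cdk4 and Cdk6 together summed to 202 and 259 CPM in siNT against 292 and 295 CPM in si3m. Among the inhibitors, the lower level lay with the Cip/Kip genes. The 5 inhibitors made up 35.5% and 30.7% of the counts of all 10 genes in siNT, against 24.4% and 22.6% in si3m. The Cip/Kip genes summed to 213 and 226 CPM in siNT against 163 and 154 CPM in si3m, whereas the INK4 genes overlapped, at 74.4 and 50.1 CPM against 77.0 and 69.4 CPM. D-type cyclin counts per Cip/Kip count were 1.51 and 1.62 in siNT against 2.78 and 3.06 in si3m. Neither the inhibitor share nor this ratio overlapped between the groups, and the levels of 63.9% of all tested genes did not overlap either. Ccnd1 counts per Cdkn1b count rose from 1.49 ± 0.213 to 3.13 ± 0.304 (SD, n = 2 each), 2.10 times as high, and Cdk4 counts per Cdkn1b count from 1.01 ± 0.257 to 1.96 ± 0.101, 1.95 times as high. These ratios join genes already given, so they add no separate evidence, but they do not depend on scaling between libraries.

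Other genes of the passage from G1 to S were taken from lists drawn up by function. Of 38 listed genes 35 were tested, 5 were higher and 4 lower, a share of 25.7% beside 27.8% of all tested genes, and their median log2 fold change was -0.0033. Further inhibitors could not be compared. Cdkn1c, the third Cip/Kip gene, had 0 counts in each library, which allows up to 6 deposited counts (1.49 and 1.52 CPM in the siNT libraries, 0.704 and 0.925 CPM in si3m). Cdkn3 had at most 12 counts, and no row was found under the symbol Cdkn2d.

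Of 5 late G1 and S genes tested, 2 were higher and 0 lower, beside 14.0% and 13.9% of all tested genes. The 2 were the E-type cyclins, which activate CDK2 late in G1, and neither call held in all settings. Ccne1, counted 68 and 42 times in siNT against 193 and 152 in si3m, rose 1.67-fold (log2 0.74, SE 0.25, edgeR adjusted p = 0.0383). Ccne2, counted 268 and 304 times against 750 and 680, rose 1.34-fold (log2 0.42, SE 0.12, adjusted p = 0.0160). Cdk2, Ccna2 and Cdc25a did not pass. The Ccne1 call was lost without siNT replicate 2 (0.199), si3m replicate 1 (0.0861) or si3m replicate 2 (0.109), with total count scaling (0.0632), in DESeq2 (0.116) and with thinned counts (0.112). That of Ccne2 was lost without siNT replicate 1 (0.0505) or si3m replicate 2 (0.183), in DESeq2 (0.0503) and with thinned counts (0.0658).

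Rb1, the retinoblastoma protein gene and the main substrate of the cyclin D kinases, fell 1.59-fold, its counts being 272 and 276 in siNT against 388 and 264 in the deeper si3m libraries (log2 -0.67, SE 0.13, edgeR adjusted p = 0.00150). That call held in all 13 alternative settings. Its relatives Rbl1 and Rbl2 did not pass. Among 10 E2F and DP factors, E2f8, an atypical repressor E2F, rose 2.55-fold (log2 1.35, SE 0.37, edgeR adjusted p = 0.0116). Its counts were 18 and 14 in siNT against 88 and 66 in si3m, and it did not pass without si3m replicate 1 (0.0693) or si3m replicate 2 (0.0529), nor in DESeq2 (0.0536). None of the CDK-activating kinase genes Cdk7, Ccnh and Mnat1, nor the kinase chaperone gene Cdc37, passed, and Mnat1, the most abundant in counts, had a log2 value of -0.028 (SE 0.087), which turned positive without siNT replicate 1 (0.023) or si3m replicate 2 (0.024).

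Genes for the turnover of G1 cyclins and inhibitors went both ways, with 2 of 13 higher and 3 lower, beside 14.0% and 13.9% of all tested genes. Ddb1, the adaptor of CUL4 ubiquitin ligases, fell 1.36-fold (log2 -0.44, SE 0.044, edgeR adjusted p = 1.76e-06), from 3726 and 3694 deposited counts in siNT to 5751 and 4484 in the deeper si3m libraries. Ambra1, the CUL4 substrate receptor for D-type cyclins, fell 1.45-fold (log2 -0.54, SE 0.15, adjusted p = 0.0124), a call lost without siNT replicate 1 (0.0905) or si3m replicate 1 (0.114). Dtl, the CUL4 receptor whose targets include p21, rose 1.39-fold (log2 0.48, SE 0.12, adjusted p = 0.00658). Cryab, reported to work with FBXO4 on cyclin D1, rose 1.26-fold (log2 0.33, SE 0.079, adjusted p = 0.00493) and did not pass without si3m replicate 1 (0.0507). Gsk3b, a kinase that marks cyclin D1 for export and decay, fell 1.14-fold (log2 -0.19, SE 0.062, adjusted p = 0.0317), which was lost without siNT replicate 2 (0.189), si3m replicate 1 (0.0519) or si3m replicate 2 (0.258), with upper quartile scaling (0.0516), in DESeq2 (0.117) and with no low-count filter (0.0709). Skp1, Skp2, Cks1b, Cul1, Cul4a, Fbxw7, Fbxo4 and Fbxo31 did not pass.

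**Figure D3:**
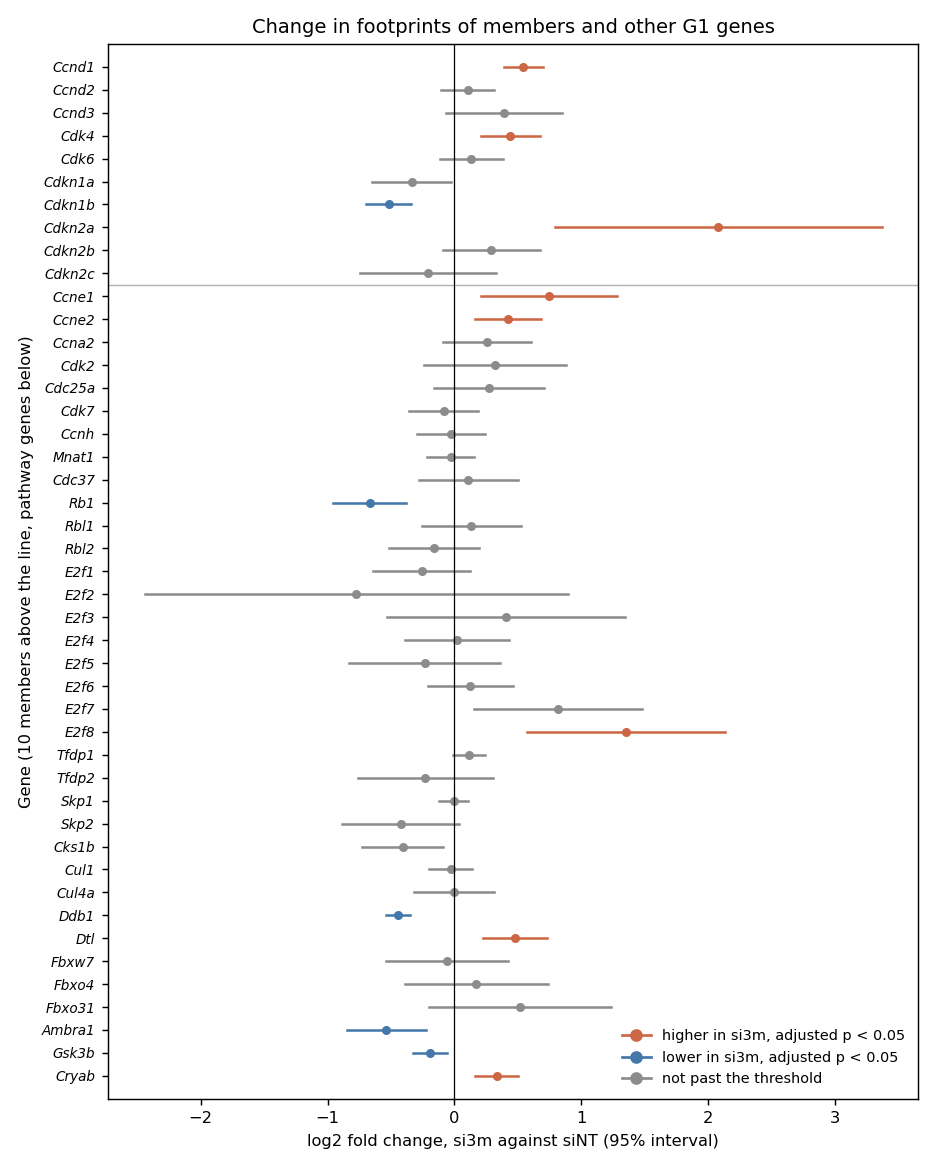
Log2 fold change of si3m against siNT with its 95% interval for the 10 genes (above the line) and the 35 tested pathway genes (below), orange where higher, blue where lower and grey where not past an adjusted p of 0.05. Intervals are narrow for Ccnd1, Cdkn1b and Ddb1 and wide for Cdkn2a and E2f2, which have few counts.

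Markers of dividing cells were mostly higher in si3m. Of 11 proliferation genes 9 rose and 0 fell, beside 14.0% higher and 13.9% lower over all tested genes, and Pcna and Aurka did not pass. The list summed to 1064 and 1033 CPM in siNT and 1504 and 1545 CPM in si3m, with no marker at 0. Among other cell types, 8 of 11 fibroblast markers were tested and all 8 rose. Of these, Dcn had 0 counts in both siNT libraries against 24 and 20 in si3m. It entered the test through si3m, and its rise is a description only. Among 5 smooth muscle markers 2 rose and 1 fell (summed levels 3178 and 3142 CPM in siNT, 3664 and 3735 CPM in si3m). Leukocyte markers, none at 0 in all libraries, summed to 31.3 and 35.5 CPM in siNT and 15.7 CPM in each si3m library. Of the 2 tested, 1 fell, Adgre1, with 24 and 34 counts in siNT against 4 and 0 in si3m. Adgre1 entered the test through siNT, and its fall is a description only. Of 4 tested cardiomyocyte markers, Tnnt2 rose (log2 1.25) and Pln (log2 -1.56) and Ttn (log2 -0.64) fell. Endothelial markers, Cdh5 at 0 throughout, summed to at most 5.57 CPM. The part of these differences in the results for the 10 genes was not tested.

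**Figure D4:**
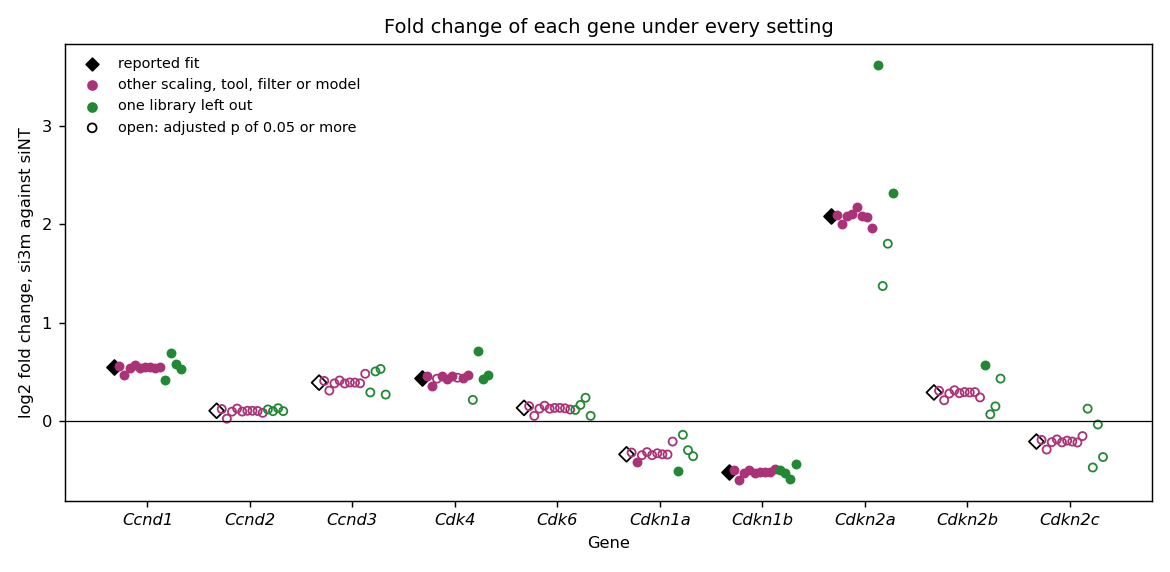
Log2 fold change of each of the 10 genes in the reported fit (black diamond), under other scalings, tools, filters or models (purple) and with 1 library left out (green), open where the adjusted p was 0.05 or more. Ccnd1 and Cdkn1b stay filled throughout, Cdk4 and Cdkn2a open in some settings, and Cdkn2c lies on both sides of 0.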

How the data were processed

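Ribosome footprints were counted per gene in 4 libraries, 2 siNT and 2 si3m, grouped by sample title. Per the labels' protocols, monosome and polysome fractions were collected after ultracentrifugation and libraries were made with a small RNA kit. The deposited values are whole-number counts with no normalization. Build rn6 and the tools HISAT2 2.2.1, Trimmomatic 0.40, featureCounts, DESeq2 and limma are listed in the submitters' processing notes. Which annotation and strand setting served is not given in the sources used here, so reads of overlapping genes cannot be told apart.

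Even numbers made up 94.9% to 97.3% of each library's non-zero counts. Replicates differed by more than counting noise (median chi-square 1.40 times that of noise in siNT, 1.48 times in si3m), and each library was kept as 1 replicate.

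All rows with enough counts were fitted in R 4.3.3 using edgeR 4.0.16 (default filterByExpr, minimum count 10, TMM, glmQLFit and glmQLFTest, two-sided, Benjamini-Hochberg adjustment over 12672 genes, threshold 0.05), without a replicate block. The SE is the log2 fold change divided by the square root of the F statistic, and 95% intervals use the test's degrees of freedom. Alternatives were other scalings, DESeq2 1.42.0, other filters, a replicate block, robust quasi-likelihood, counts divided by 2, thinned counts and leaving out each library. Coding lengths were not used here, so counts of different genes say nothing of their relative levels, ratios between genes serve only to compare the groups, and the planned share per codon was replaced by the share of counts.

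The 10 genes and the gene lists were chosen with earlier results of these data known. From each pathway list up to 4 genes past the threshold with the smallest p were given with values, or, with none, the member with the most counts. Gsk3b, outside that rule, was added as the fifth of its list to pass, and Tspan31 for its overlap with Cdk4, both after their values were seen. Proliferation markers were Mki67, Top2a, Pcna, Mcm2, Mcm5, Ccnb1, Cdk1, Aurka, Bub1, Cenpf and Rrm2. Cardiomyocyte markers were Myh6, Myh7, Tnnt2, Tnni3, Tnnc1, Actc1, Myl2, Myl3, Myl7, Ryr2, Nppa, Nppb, Pln, Actn2, Ttn and Mybpc3. Fibroblast markers were Col1a1, Col1a2, Col3a1, Postn, Dcn, Lum, Pdgfra, Tcf21, Thy1, Ddr2 and Fbn1. Smooth muscle markers were Acta2, Tagln, Cnn1, Myh11 and Myocd. Endothelial markers were Pecam1, Cdh5, Kdr, Tek, Vwf and Tie1. Leukocyte markers were Ptprc, Cd68, Adgre1, Csf1r, Cd14 and Itgam. Gene models and windows before gene starts come from RefSeq tables of GRCr8, which is not the build of the files; all 10 genes matched by symbol, 7 with a window, and the E-box CACGTG, the GC box GGGCGG and the E2F letters TTTNNCGC were searched on both strands in the 250 bases before each start.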

Additional observations from a re-analysis of the deposited data

How the results depend on the processing

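Ccnd1, Ccnd2, Ccnd3, Cdk6 and Cdkn1b kept their direction and their side of the threshold in each of 13 alternatives; over the 10 genes and Eif3m, 132 of 142 values did. Cdk4 lost its call in DESeq2 (log2 0.43) and with robust quasi-likelihood (0.44), as did Eif3m with robust quasi-likelihood (-1.59, adjusted p = 0.0522). Cdkn1a passed with total count scaling (log2 -0.42), where 2 of the 10 genes were lower in place of 1. Leaving out each library in turn, log2 values ran from 0.22 to 0.72 for Cdk4, -0.50 to -0.14 for Cdkn1a, 1.37 to 3.62 for Cdkn2a, 0.068 to 0.57 for Cdkn2b and -0.47 to 0.13 for Cdkn2c, whose direction turned only without siNT replicate 1 (0.13). Between 1 and 2 of the 10 genes were then lower, and 2 to 6 pathway genes higher. Pathway genes higher were 2 in DESeq2 and 3 with thinned counts, in place of 5. Mnat1 ran from -0.067 to 0.024, turning without siNT replicate 1 (0.023) and without si3m replicate 2 (0.024). Cdkn2a was not tested with the filter of 50 counts in 2 libraries. The causes of these changes were not tested. With the replicate block 3 of the 10 genes were higher and 1 lower, with 1851 higher and 1843 lower over all genes. Replicate differences of the groups correlated at -0.019 over genes. Counting noise makes up much of these differences, so the value cannot settle whether the replicate numbers pair the libraries. Depth limits Cdkn2a, Ccnd3 and Cdkn2c most, with SE values of 0.60, 0.21 and 0.25. The share per codon was not run.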
